A study of Homo sapiens with 72 samples.

Results

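The wild-type and the G3BP1-rescue libraries of the first RNA-seq experiment were compared gene by gene, 2 libraries against 2. The comparison asks what transfection of G3BP1 into knockout cells does not bring back to the wild-type level. All 61541 Ensembl gene rows of its table were taken, which are also all the gene rows of the series. Of these, 22861 carried an adjusted p-value, 25033 had no read in any of the 4 libraries, and 13647 had reads but no adjusted p-value. The series holds 72 libraries. Every library used for the comparison is of U2OS, a human bone osteosarcoma line that grows as a flat, adherent sheet. Wild-type cells were untreated. The rescue cells carried a knockout of both G3BP1 and G3BP2, were given a G3BP1 transgene by transient transfection with Lipofectamine, and were taken 24 hours later. Untreated cells of the G3BP1/2 knockout, also 2 libraries, serve below as the reference for the starting level. Wild type and rescue thus differ in the cell population, in the transfection and in the source of G3BP1 at once, and these cannot be told apart here, since no mock-transfected group was used. The labels do not say whether the knockout line is 1 clone or whether the 2 libraries of a group came from separate cultures, so the p-values measure only the spread between these libraries, which may be technical.

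G3BP1 and G3BP2 are closely related RNA-binding proteins that gather untranslated mRNA into stress granules, cytoplasmic bodies that form when translation stops. They bind the partner proteins CAPRIN1 and USP10 through a domain that resembles the nuclear transport factor NTF2. G3BP1 has also been tied to the sensing of foreign nucleic acid by cGAS and RIG-I, whose signals run through the transcription factors IRF3 and NF-kB.

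The authors deposited test results and no reads per library, but the base means of the 3 tables of this experiment share libraries and fixed the whole reads of each of the 6 libraries for 22847 of the 22861 tested genes. The tables do not show which of the 2 libraries of a group is which replicate, so they are called a (the deeper by size factor) and b. Reads in the 61527 gene rows fixed in this way, tested or not, came to 41557971 and 39408071 in wild type, 46720858 and 34434294 in knockout, and 45323485 and 45780141 in rescue. The 14 tested genes without fixed reads, the abundant MT-CO3 among them, are left out of these totals. Levels below are normalised reads, which are reads divided by 1 size factor per library over all 6. Between the libraries of a group, genes of at least 100 normalised reads differed by a median of 0.077 (wild type) and 0.066 (rescue) on the log2 scale. The reads were not all used alike: in the authors' deposited table the unmapped reads had a log2 fold change of 0.51, wild type over rescue, and the reads outside annotated features one of 0.26, while ambiguous reads were lower in wild type, at -0.18. Their part in the results was not tested.

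The targeted genes were read first. G3BP1 (ENSG00000145907) stood at 19021 and 18085 normalised reads in wild type, 12631 and 12606 in knockout, and 20086 and 20372 in rescue. Rescue was the highest of the 3 groups and knockout the lowest, with no overlap between any of them. For G3BP1 the authors' deposited table gave -0.15 for log2 of wild type over rescue (SE 0.04, adjusted p 0.00267), so the rescue held 1.09 times the wild-type level. With limma on the recovered reads of all 4 libraries the adjusted p was 0.00358. The limma call did not hold with every library left out in turn, in fits that leave 1 library in a group. G3BP2 (ENSG00000138757) stood at 8621 and 8090 in wild type, 6611 and 6400 in knockout and 7739 and 7665 in rescue, and was not called between wild type and rescue. Knockout cells therefore still held reads of both genes, at 68% of wild type for G3BP1 and 77.9% for G3BP2, and mRNA level does not check the loss of protein. In a second experiment with other libraries, in which knockout cells were transfected with wild-type G3BP1 for 24 hours, the authors' deposited table gave G3BP1 a log2 fold change of 7.31, rescue over knockout, against the -0.69 that the authors' deposited table of this experiment gave for knockout over rescue. The labels do not say whether the constructs of these experiments differ, and the transfected cells of the 2 experiments thus stood at different G3BP1 levels relative to knockout.

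Wild type and rescue differed widely. At an adjusted p under 0.05 in the authors' test, 3465 genes were higher in wild type (15.2% of the 22861 tested) and 4674 were lower (20.4%), 35.6% in all. Most of these differences were small, and the large ones lay on 1 side. Of the called genes, 867 had a log2 fold change of at least 1 in size, 293 of them higher and 574 lower in wild type. With limma on the recovered reads of all 4 libraries 10673 genes were called. At a deposited size of at least 3, 90 genes were lower in wild type and 0 were higher. The median over all tested genes was 0.00, and over the 13636 whose base mean reached 100 it was -0.04. Of those 13636, 3307 were called higher and 4389 lower, a larger part than over all tested genes. Counts for lists of well-read genes below are to be read beside these as well. In bulk RNA, fewer cells that express a gene and less of its RNA per cell cannot be told apart, and the share of rescue cells that took up the transgene is not given in the sources used here.

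**Figure D1:**
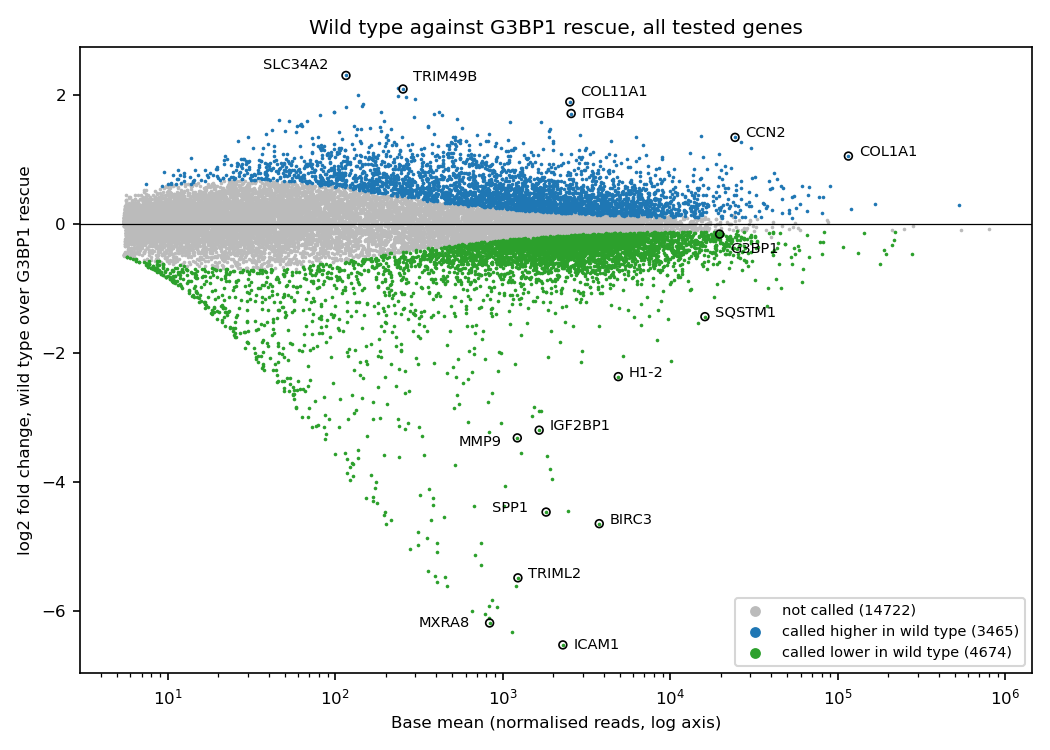
Each point is 1 of the 22861 tested genes, with the deposited base mean in normalised reads on a log axis and the deposited log2 fold change, wild type over rescue; blue and green mark genes called higher and lower in wild type, and circles mark named genes. The points called lower reach -6.52 at ICAM1, and those called higher reach 2.31 at SLC34A2.

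The genes lowest in wild type were near silent there and abundant in both knockout and rescue. ICAM1 (ENSG00000090339), an adhesion molecule that leukocytes bind, had 31 and 31 normalised reads in wild type, 6674 and 6399 in knockout, and 4622 and 4249 in rescue. Rescue stood 142 times above wild type, and the authors' deposited table put the log2 fold change at -6.52 (SE 0.16), with its adjusted p listed as 0. Folds given here are ratios of group means of normalised reads, and the deposited log2 values are shrunken, so they are smaller for genes this low. Each gene described below as higher or lower in wild type was called by the authors' test. MXRA8 (ENSG00000162576), a surface protein that arthritogenic alphaviruses use for entry, had 6 and 6 in wild type, 4792 and 4605 in knockout, and 1693 and 1560 in rescue. MAGEA10 (ENSG00000124260), a testis antigen from a family of similar genes on which reads can be shared, had 6 and 7 in wild type, 3251 and 3140 in knockout, and 1721 and 1493 in rescue. In both genes the rescue libraries lay below the knockout and far above the wild type.

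SLC17A9, a vesicular nucleotide transporter, had 3 and 5 normalised reads in wild type against 1287 and 1266 in rescue. BASP1, a membrane-bound signalling protein of growing neurites, had 14 and 13 against 1667 and 1701. GTSF1, a germline factor of the piRNA pathway, had 2 and 6 against 921 and 836. No library of wild type reached the lowest rescue library in any of these genes. The others of the 10 lowest named genes were AFAP1-AS1, ENOSF1, ANKRD20A19P and TRIML2, with rescue 229, 134, 149 and 70.2 times above wild type. ENOSF1 lies across the end of TYMS on the other strand and AFAP1-AS1 across AFAP1, so their reads may be partly those of the partner, as the counting is not stated to use strand. In wild type TYMS had 11536 and 11150 normalised reads where ENOSF1 had 9 and 18, and the share of such reads was not tested. Another 4 called genes without a symbol had fold changes as low as these.

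TRIML2 and SPP1 stood apart from the rest of this set in that rescue exceeded knockout as well. TRIML2 had 32 and 35 normalised reads in wild type, 908 and 1046 in knockout and 2708 and 2039 in rescue. SPP1, the secreted bone phosphoprotein osteopontin, had 147 and 130 in wild type, 2429 and 2168 in knockout and 3527 and 3296 in rescue. The long noncoding RNA LINC01029 was instead highest in knockout, with 7 and 20, then 9557 and 9567, then 4872 and 4635. BIRC3, an inhibitor of apoptosis that is induced by NF-kB, had 251 and 281 in wild type against 8633 and 9207 in knockout and 7491 and 6715 in rescue.

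The genes highest in wild type differed by less. SLC34A2 (ENSG00000157765), a sodium-phosphate cotransporter, had 191 and 223 normalised reads in wild type, 26 and 23 in knockout, and 18 and 29 in rescue, 8.81 times lower than wild type. COL11A1 (ENSG00000060718), a chain of a minor fibrillar collagen, had 4006 and 3912 in wild type, 112 and 102 in knockout, and 911 and 1123 in rescue. In SLC34A2 the rescue and knockout libraries overlapped, and in COL11A1 the rescue libraries lay between the other groups. ITGB4, the beta chain of the laminin-binding integrin of hemidesmosomes, had 4024 and 3814 in wild type, 559 and 495 in knockout, and 1125 and 1170 in rescue. PLXDC2, TMEM59L and SCD5 completed the 5 highest genes whose base mean reached 1000, with wild type 3.13, 3.16 and 2.9 times above rescue. SCD5, a stearoyl-CoA desaturase, was lower in rescue (978 and 971) than in knockout (1524 and 1377), while wild type had 3042 and 2600.

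**Figure D2:**
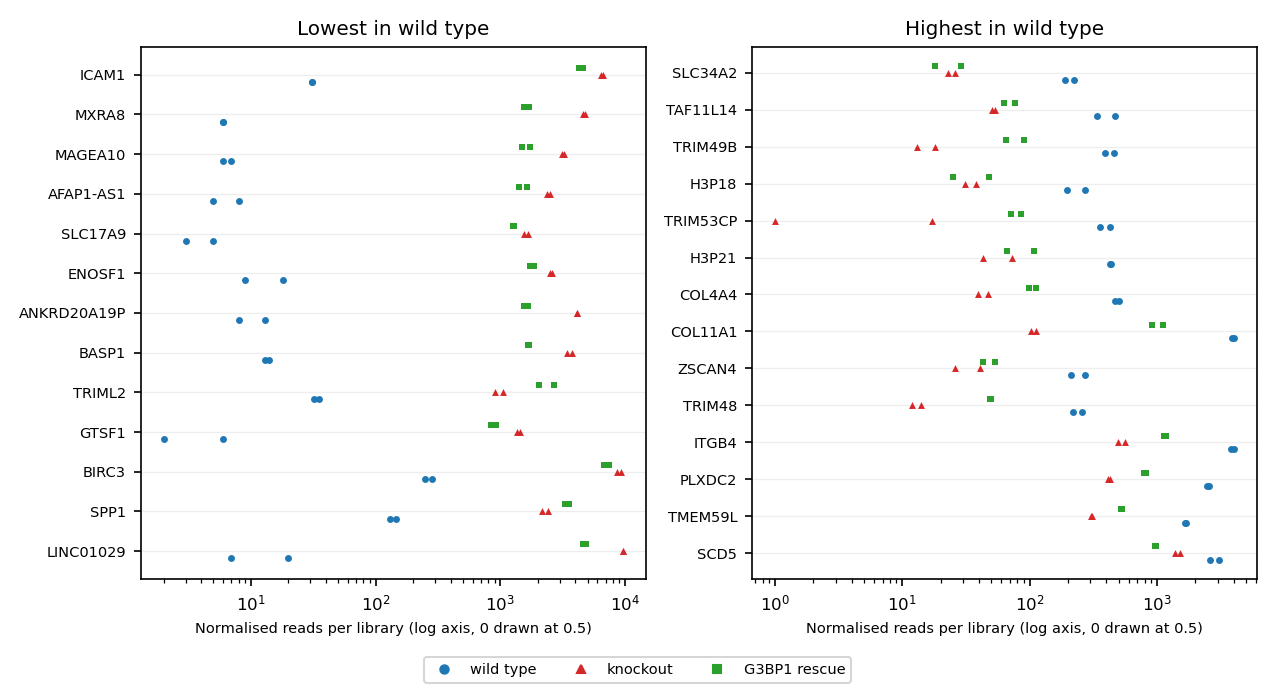
Normalised reads in each of the 6 libraries on a log axis, for the named genes lowest (left) and highest (right) in wild type; circles are wild type, triangles knockout and squares rescue. On the left every wild-type point lies below every rescue point, as with the 31 and 31 reads of ICAM1 against 4622 and 4249, and on the right every wild-type point lies above every rescue point. Their choice by fold change largely fixes this.

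NF-kB is held in the cytoplasm by inhibitor proteins and, once freed, switches on cytokines, adhesion molecules and its own inhibitors. Of 44 listed targets, cytokines and chemokines, 43 were found and 31 tested. In wild type 15 were called lower and 5 higher, against 20.4% and 15.2% of all tested genes. The list median of the log2 fold change was -0.31, against 0.00 for all tested genes. That median depends on the shrinkage and on members with few reads: as unshrunken ratios of group means it was -0.72, at -0.64 to -0.89 with 1 library left out, and among members whose base mean reached 100 the deposited median was -1.09. Several feedback inhibitors and subunits were among those lower. The members named next beyond ICAM1, BIRC3, SAA1, TNFAIP2 and NFKBIZ were picked after their values were seen. NFKBIA, the main inhibitor, had 738 and 682 normalised reads in wild type, 1584 and 1537 in knockout, and 1546 and 1498 in rescue. TNFAIP3, the ubiquitin-editing inhibitor A20, had 251 and 276, then 1053 and 884, then 1038 and 1063. In both genes the 2 rescue libraries lay at or near the knockout level and clear of wild type. NFKB2, RELB, NFKBIE and NFKB1 were 2.65, 2.97, 5.14 and 1.65 times higher in rescue than in wild type. TRAF1, a signalling adaptor, and the cytokine IL32 were 26.6 and 12.9 times higher.

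SAA1, an acute-phase apolipoprotein, had 8 and 6 normalised reads in wild type, 317 and 352 in knockout and 766 and 604 in rescue, so it was highest in the rescued cells. TNFAIP2 went against the list, with 767 and 814 in wild type, 35 and 49 in knockout, and 291 and 327 in rescue. NFKBIZ was also called higher in wild type, at 1173 and 1127 against 815 and 704 in rescue. Its limma call did not hold with every library left out in turn, in fits that leave 1 library in a group. TNFAIP2 and NFKBIZ are 2 of the 5 members called higher. Of the list's 43 genes 12 were not tested, among them CXCL1, CXCL2 and IL1B, which had no read in any library. In the second experiment 17 of the 27 members tested were called higher in rescue than in knockout and 4 lower, against 23% and 19.1% of the 20738 genes tested there.

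To show the sequence context of these genes, a stretch of 120 bases from the 250 before the annotated start is given for ICAM1, TNFAIP3 and NFKBIA, from RefSeq on GRCh38.p14. The match begins 186 bases before the start in ICAM1, 67 in TNFAIP3 and 242 in NFKBIA. The capitals mark a short core of the NF-kB site, GGA, any 3 bases and TCC, which is its own reverse complement.
ICAM1, chr19:10270878-10270997, plus strand: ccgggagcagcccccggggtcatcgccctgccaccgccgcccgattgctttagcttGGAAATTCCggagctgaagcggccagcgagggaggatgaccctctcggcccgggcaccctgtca
TNFAIP3, chr6:137867136-137867255, plus strand: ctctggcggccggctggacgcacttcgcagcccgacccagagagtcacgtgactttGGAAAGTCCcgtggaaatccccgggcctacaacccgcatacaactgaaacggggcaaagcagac
NFKBIA, chr14:35404880-35404999, minus strand: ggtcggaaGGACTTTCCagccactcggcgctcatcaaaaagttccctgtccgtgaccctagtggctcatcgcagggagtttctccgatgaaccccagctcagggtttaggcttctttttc
The core was found within 250 bases before the start in 5 of the 9 called-lower members that have a RefSeq window, in 8 of the 13 other tested members, and in 8.17% of the 13209 tested genes with a window. The core was thus present in members that were called lower and in members that were not.

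**Figure D3:**
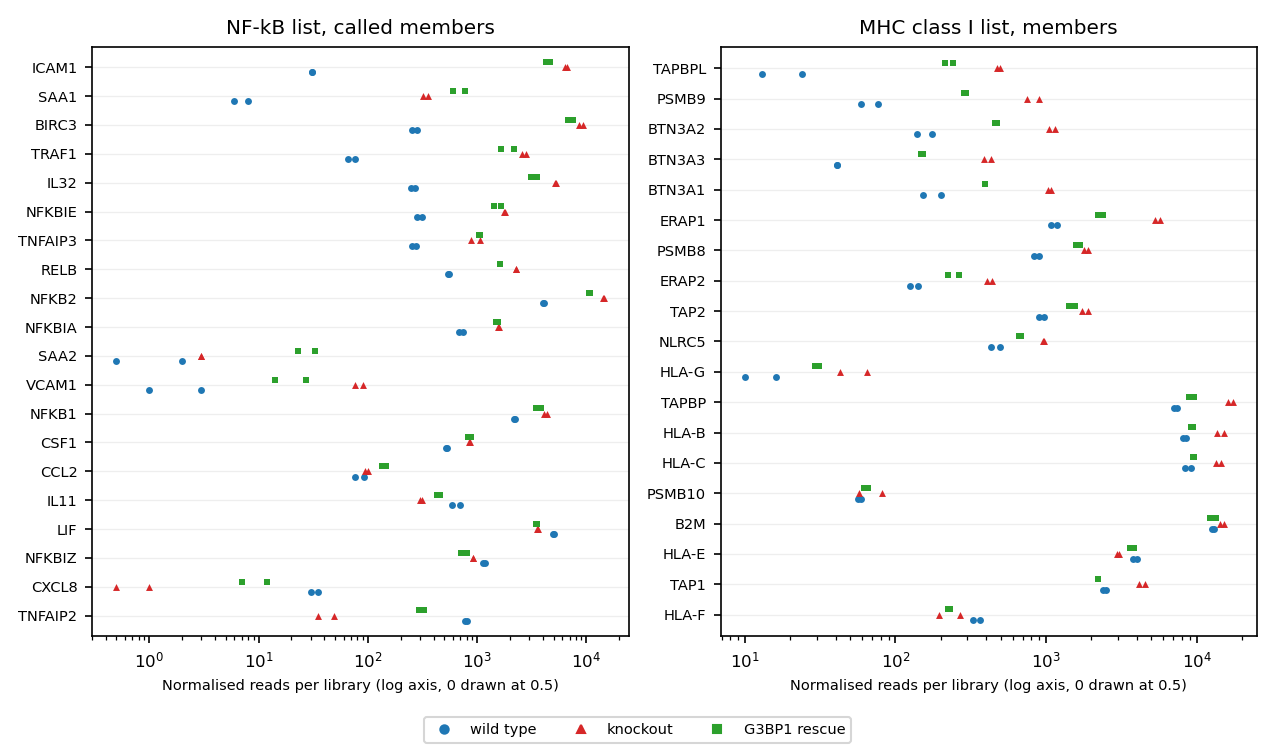
Normalised reads per library on a log axis for the called members of the NF-kB list (left) and members of the MHC class I list (right), ordered by fold change; circles are wild type, triangles knockout and squares rescue. Rescue lies near knockout for NFKBIA and TNFAIP3, and between wild type and knockout for BTN3A2 and ERAP1.

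Antigen presentation by MHC class I was the second group of immune genes that stayed higher in rescue. All 20 listed members were tested. In wild type 14 were called lower and 1 higher, against 20.4% and 15.2% of all tested genes, and the median was -0.52. PSMB9, a subunit of the immunoproteasome that cuts peptides for presentation, had 59 and 77 normalised reads in wild type, 893 and 749 in knockout, and 284 and 293 in rescue. TAPBPL, a relative of the peptide-loading factor tapasin, had 24 and 13, then 473 and 497, then 241 and 214. ERAP1, which trims peptides in the endoplasmic reticulum, had 1071 and 1176, then 5719 and 5277, then 2378 and 2204. In each of these the rescue libraries lay between the other groups and overlapped neither. The class I heavy chain HLA-B differed little, with rescue at 1.12 times wild type, and reads of the similar heavy chain genes can be shared. HLA-F was the member called higher in wild type, at 364 and 329 against 225 and 231 in rescue. B2M, the shared light chain, was not called. In the second experiment, 13 of the 20 members were called lower in rescue than in knockout and 1 higher, against 19.1% and 23% of all genes tested there.

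The interferon-stimulated genes were split. Of 35 tested, 13 were called lower in wild type and 3 higher. Over all tested genes it was 20.4% and 15.2%, and of the 13636 whose base mean reached 100 it was 4389 and 3307. The list median was -0.33. As unshrunken ratios the median was -0.49, at -0.44 to -0.52 with 1 library left out. OAS3, which makes the second messenger that activates RNase L, had 833 and 758 normalised reads in wild type, 4908 and 4575 in knockout, and 2073 and 1873 in rescue. SAMD9L, an antiviral translation inhibitor, had 132 and 138, then 688 and 649, then 338 and 328. HERC5, the ligase for ISG15, had 2 and 1, then 214 and 204, then 151 and 79. These genes were lowest in wild type, highest in knockout and in between in rescue. TRIM22 and STAT2 were called higher in wild type, at 1.61 and 1.37 times rescue. Among sensors of nucleic acid and their signalling partners, 5 of 13 tested were called lower and 1 higher. Neither list had a share called lower far above that of those 13636 genes. IFIH1, the sensor MDA5 of long double-stranded RNA, had 129 and 133 in wild type, 969 and 989 in knockout, and 444 and 526 in rescue. The interferon genes themselves gave no signal that could be compared, since IFNB1, IFNL1, IFNL2 and IFNL3 had no read in any library. In the second experiment 20 of 30 interferon-stimulated genes tested were called lower in rescue than in knockout and 2 higher. Over all genes tested there it was 19.1% and 23%.

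The element through which interferon acts on many of these genes is shown for HERC5 and OAS3 in a stretch of 120 bases from the 250 before the start (RefSeq, GRCh38.p14). The first match begins 125 bases before the start in HERC5 and 143 in OAS3. Capitals mark GAAA, any 2 bases and GAAA, on either strand, with overlapping matches joined.
HERC5, chr4:88456939-88457058, plus strand: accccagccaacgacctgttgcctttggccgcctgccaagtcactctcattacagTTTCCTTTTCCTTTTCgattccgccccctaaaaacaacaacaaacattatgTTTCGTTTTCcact
OAS3, chr12:112938276-112938395, plus strand: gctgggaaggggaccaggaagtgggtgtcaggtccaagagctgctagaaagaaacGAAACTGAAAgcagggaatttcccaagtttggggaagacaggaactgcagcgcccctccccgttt
This pattern was found within 250 bases before the start in 7 of 12 called-lower members with a window, in 9 of 15 other tested members, and in 2.35% of all 13209.

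Of 47 listed histone genes, 32 were tested in this poly-A selected RNA, 20 were called lower in wild type and 0 higher, and the median was -0.62. The list leaves out the variants H3Y1 and H3Y2, which were called higher and are described with the cleavage-stage genes. As unshrunken ratios of group means the median was -0.97, at -0.82 to -1.07 with 1 library left out. Among members whose base mean reached 100 the deposited median was -1.10. The linker histone H1-2 had 1607 and 1508 normalised reads in wild type, 11338 and 11005 in knockout, and 7756 and 8313 in rescue. H2AC6 had 1169 and 1180, then 5024 and 5178, then 4249 and 5105. The rescue libraries of H1-2 lay between the other groups, and those of H2AC6 reached the knockout level. Among the replication-independent variants, H2AZ1 and H3-3B were also called lower, while H3-3A was not called. Histone genes of 1 class are near copies of each other, and reads may be shared among them. Of 31 DNA replication genes, 18 were called lower in wild type and 1 higher, and of 26 mitotic genes 13 and 2. Of the 13636 tested genes whose base mean reached 100, 4389 were called lower and 3307 higher. The median for knockout over wild type was 1.31 for histones and 0.04 for replication genes. In the second experiment 11 of 33 histones were called lower in rescue than in knockout and 2 higher. For replication genes it was 1 and 17 of 31, and for mitotic genes 17 and 0 of 26. Over all genes tested there it was 19.1% and 23%. A link between these groups was not tested. PLK1, the mitotic kinase, had 4666 and 4433 in wild type against 7374 and 8006 in rescue, with 6901 and 6570 in knockout. TYMS, which makes thymidylate, had 11536 and 11150 in wild type against 24458 and 24815 in rescue and 30859 and 30713 in knockout, and it overlaps ENOSF1 on the other strand.

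Many genes of the translation machinery were lower in wild type by small amounts. Of 78 cytosolic ribosomal protein genes, 70 were called lower and 1 higher, against 20.4% and 15.2% of all tested genes. Their median was -0.34. Of 75 mitochondrial ribosomal protein genes tested, 57 were called lower and 0 higher, with a median of -0.36. Of 39 translation factors, 28 were called lower and 4 higher, with a median of -0.28. RPS15A had 1544 and 1525 normalised reads in wild type, 3168 and 2968 in knockout and 2646 and 2607 in rescue. RPL24 had 12761 and 12299, then 16278 and 16174, then 19318 and 20763, and was highest in rescue. In both genes every wild-type library lay below every rescue library. RPL7A was the 1 member called higher, at 27161 and 26385 against 22708 and 24071 in rescue. Its limma call did not hold with every library left out in turn, in fits that leave 1 library in a group. EIF5A, the hypusine-bearing elongation factor, had 17707 and 16465 in wild type, 19901 and 19505 in knockout, and 26557 and 27656 in rescue. The median of the cytosolic list was -0.06 in knockout over wild type and -0.35 in knockout over rescue, and the 3 tables share their libraries. Ribosomal protein genes have many processed copies in the genome, on which reads can be lost as multimapping.

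The lists of oxidative phosphorylation, heat shock chaperones and oxidative stress targets also had more members lower than higher in wild type. Of 76 nuclear genes of oxidative phosphorylation, 48 were called lower in wild type and 1 higher, against 20.4% and 15.2% of all tested genes. Their median was -0.24. Of 22 heat shock chaperones 18 were called lower and 0 higher. HSPD1, the mitochondrial chaperonin, had 30477 and 30419 normalised reads in wild type, 51880 and 50390 in knockout and 57980 and 60486 in rescue. Its cochaperonin HSPE1 had 1793 and 1669, then 3009 and 2850, then 3370 and 3632. Both chaperonin genes were lowest in wild type and highest in rescue. Of 21 targets of the oxidative stress factor NRF2, 14 were called lower and 3 higher, and FTL, the ferritin light chain, had 22467 and 22682 in wild type, 25886 and 27152 in knockout, and 41794 and 39101 in rescue. SQSTM1, the autophagy receptor p62, had 8705 and 8529, then 15809 and 15884, then 23187 and 22782. MT2A, a metal-binding metallothionein, had 8480 and 8588, then 8619 and 8560, then 16197 and 18163. Rescue was the highest group for FTL, SQSTM1 and MT2A, and for MT2A wild type and knockout overlapped.

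Of 34 tested genes for proteins that gather with G3BP1 in stress granules, 21 were called lower in wild type and 3 higher. Among all tested genes it was 20.4% and 15.2%. The list median was -0.15. The RNA-binding proteins IGF2BP1 and IGF2BP3, fetal factors that stabilise mRNA, differed most. IGF2BP1 had 300 and 311 normalised reads in wild type, 5520 and 5407 in knockout, and 2990 and 2857 in rescue. IGF2BP3 had 47 and 43, then 908 and 916, then 613 and 584. The partners USP10 and CAPRIN1 and the list members YBX1 and PABPC1 differed by far less. Rescue stood at 1.25 times wild type for USP10, 1.1 times for CAPRIN1, 1.59 times for YBX1 and 1.35 times for PABPC1. These 4 members were picked after their values were seen. PRRC2B was called higher in wild type, at 18711 and 17396 against 12666 and 13255.

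**Figure D4:**
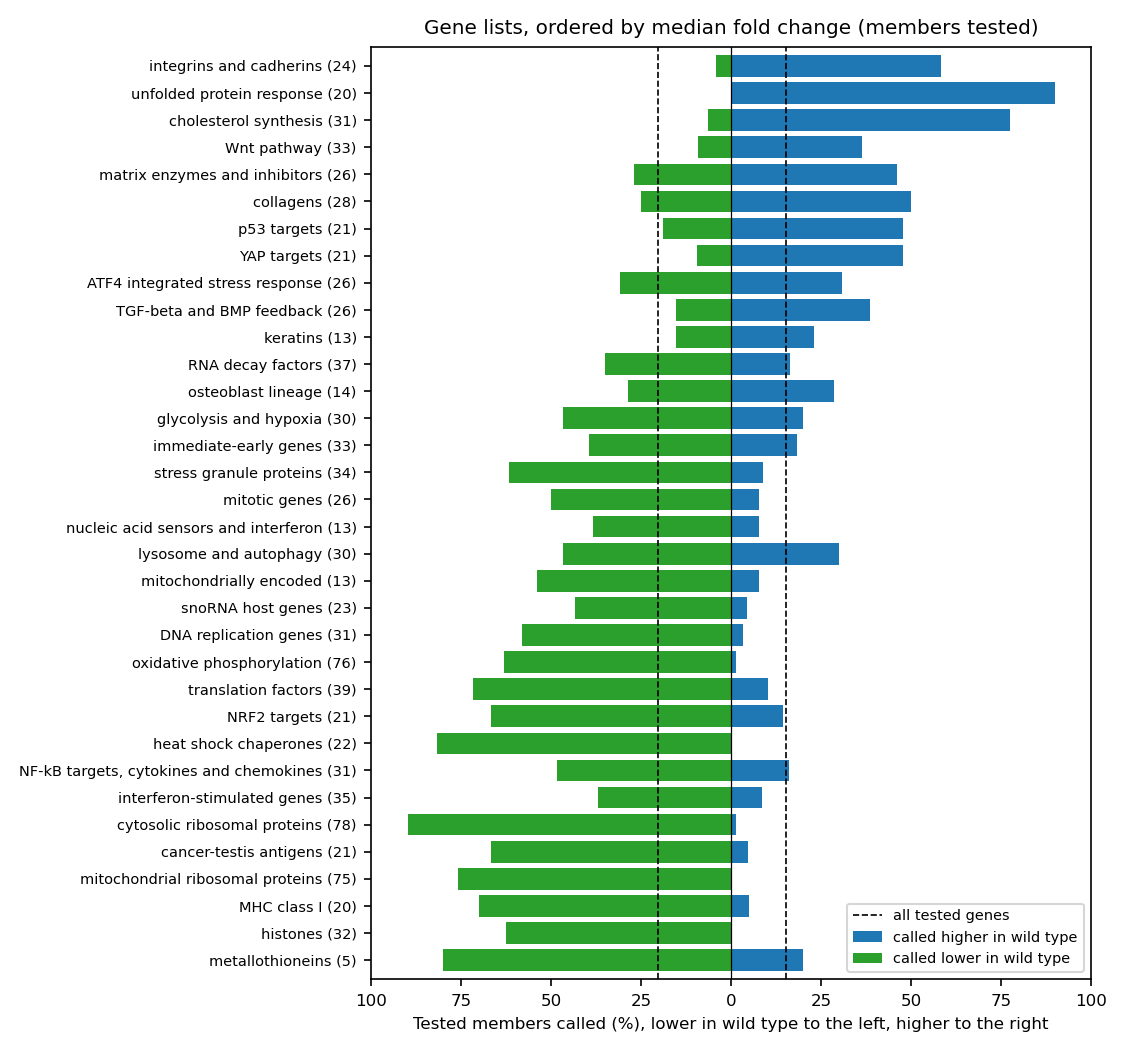
For each of 34 gene lists, bars give the share of tested members called lower (left) and higher (right) in wild type, ordered by median fold change. Dashed lines mark the shares over all tested genes, 20.4% and 15.2%, which include genes of few reads. Cytosolic ribosomal proteins have the longest bar to the left, with 70 of 78 called lower, and the unfolded protein response the longest to the right, with 18 of 20 called higher.

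Genes of the endoplasmic reticulum and of lipid synthesis were higher in wild type. Of 20 genes of the unfolded protein response, by which the endoplasmic reticulum raises its folding capacity, 18 were called higher and 0 lower. Among all tested genes it was 15.2% and 20.4%. The list median was 0.42. The chaperone HSPA5 had 60728 and 59916 normalised reads in wild type, 53167 and 50235 in knockout, and 43634 and 45208 in rescue. XBP1, the transcription factor whose mRNA is spliced in this response, had 4082 and 4079, then 2656 and 2514, then 2382 and 2447. CRELD2, a secreted target of the response, had 4878 and 4378, then 2289 and 2144, then 2510 and 2972. Wild type was clear of rescue in all of these genes, and for HSPA5 the rescue libraries lay below the knockout. In the second experiment 12 of the 20 were called higher in rescue than in knockout and 3 lower, against 23% and 19.1% of all genes tested there.

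Of 31 genes of cholesterol and fatty acid synthesis, 24 were called higher in wild type and 2 lower, against 15.2% and 20.4% of all tested genes. Their median was 0.33. FADS2, a fatty acid desaturase, had 25641 and 23547 normalised reads in wild type, 24790 and 21677 in knockout, and 12666 and 12513 in rescue, so it was low in rescue alone and wild type and knockout overlapped. SREBF2, the transcription factor that drives the cholesterol genes, was 1.47 times higher in wild type than in rescue, and was picked after its values were seen. LSS and ELOVL6 were the 2 called lower, with rescue at 1.09 and 1.15 times wild type. Neither kept its limma call with every library left out in turn, in fits that leave 1 library in a group. In the second experiment 20 of 32 genes of this list were called lower in rescue than in knockout and 2 higher. Over all genes tested there it was 19.1% and 23%.

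Among adhesion and matrix genes, more members of each list were called higher in wild type than lower. Of 24 integrins and cadherins tested, 14 were called higher and 1 lower, against 15.2% and 20.4% of all tested genes. Their median was 0.44, which was the highest of the 34 lists. CDH4, a cadherin of the nervous system, had 6516 and 6044 normalised reads in wild type, 234 and 179 in knockout, and 2749 and 3076 in rescue. CDH2, or N-cadherin, had 19215 and 18549, then 8063 and 7528, then 11432 and 11073. ITGA5, the fibronectin receptor chain, was the 1 called lower, at 8527 and 7939 against 9803 and 9753. Of 28 collagens, 14 were called higher and 7 lower, the latter near the share over all tested genes. COL1A1, the main bone collagen, had 160581 and 150271 in wild type, 23923 and 22932 in knockout and 69668 and 76282 in rescue. COL6A1 ran the other way, with 7537 and 7290, then 32133 and 30539, then 21597 and 20892. In both collagens rescue lay between the other groups.

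Of 26 matrix enzymes and inhibitors, 12 were called higher in wild type and 7 lower, against 15.2% and 20.4% of all tested genes. LOX, which crosslinks collagen, had 3978 and 3847 normalised reads in wild type, 813 and 735 in knockout, and 1712 and 1702 in rescue. The protease gene MMP9 had 207 and 204, then 2945 and 3185, then 2142 and 2230. MMP3 was highest in rescue, with 202 and 259 in wild type, 18 and 33 in knockout, and 2310 and 3072 in rescue. In the second experiment the authors' deposited table gave MMP3 a log2 fold change of 10.04, rescue over knockout. CCN2, a matricellular target of YAP and of TGF-beta, had 35698 and 33749 in wild type, 6499 and 5913 in knockout, and 13458 and 13337 in rescue. NOG, a secreted BMP antagonist, had 6765 and 5871, then 1106 and 970, then 2554 and 2416. Of 33 Wnt pathway genes, 12 were called higher and 3 lower, and the transcription factor TCF7 was read 0 and 3 times in wild type on the normalised scale against 792 and 751 in knockout and 388 and 376 in rescue.

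A further group became visible among the genes highest in wild type, and its list was therefore made after the values were seen. It holds genes that the early embryo switches on at the cleavage stage and that the transcription factor DUX4 induces, and most of them belong to families of near-identical copies on which reads can be shared. Of 39 genes 24 were tested, 18 were called higher in wild type and 1 lower, and the median was 1.49, values that the choice of the list fixes in part. SLC34A2, described above, is a member. ZSCAN4, a marker of the cleavage stage, had 212 and 270 normalised reads in wild type, 41 and 26 in knockout, and 43 and 53 in rescue. TRIM49B had 390 and 459, then 18 and 13, then 65 and 91. TAF11L14 had 335 and 465, then 53 and 51, then 63 and 77. In these genes wild type stood clear of the other groups. Rescue lay near knockout in ZSCAN4 and TAF11L14 and above it in TRIM49B, for which the authors' deposited table gave -1.48 on the log2 scale, knockout over rescue, with an adjusted p of 1.23e-05. H3Y1, a primate histone variant, had 657 and 653 in wild type against 187 and 161 in rescue. RFPL4A was the member called lower, at 68 and 79 against 132 and 128. Its limma call did not hold with every library left out in turn, in fits that leave 1 library in a group. DUX4 itself had 0 and 0 in wild type, 1 and 0 in knockout, and 2 and 2 in rescue, too few to compare. Summed over the list, the libraries held 4232 and 4683 in wild type, 1056 and 963 in knockout, and 1249 and 1286 in rescue.

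Stretches of 120 bases from the 250 before the start of 4 members show a shared pattern and how alike the family copies are (RefSeq, GRCh38.p14). Capitals mark TAA, any 3 bases and AATCA, a core of the DUX4 site, on either strand.
TRIM49B, chr11:49028619-49028738, plus strand: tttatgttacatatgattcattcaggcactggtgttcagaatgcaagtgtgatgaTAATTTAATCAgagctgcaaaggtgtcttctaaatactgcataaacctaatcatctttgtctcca
TRIM48, chr11:55261954-55262073, plus strand: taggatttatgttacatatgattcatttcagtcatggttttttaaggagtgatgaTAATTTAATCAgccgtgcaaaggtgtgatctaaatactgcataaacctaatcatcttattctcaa
H3Y1, chr5:17655850-17655969, minus strand: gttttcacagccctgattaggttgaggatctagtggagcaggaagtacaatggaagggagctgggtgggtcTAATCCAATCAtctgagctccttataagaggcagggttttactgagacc
TAF11L12, chr5:17610237-17610356, plus strand: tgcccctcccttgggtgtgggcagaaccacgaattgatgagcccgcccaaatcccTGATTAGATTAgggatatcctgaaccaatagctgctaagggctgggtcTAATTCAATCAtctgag
The pattern was found within 250 bases before the start in 6 of the 16 called-higher members with a window, in 2 of the 6 other tested members, and in 0.515% of all 13209.

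**Figure D5:**
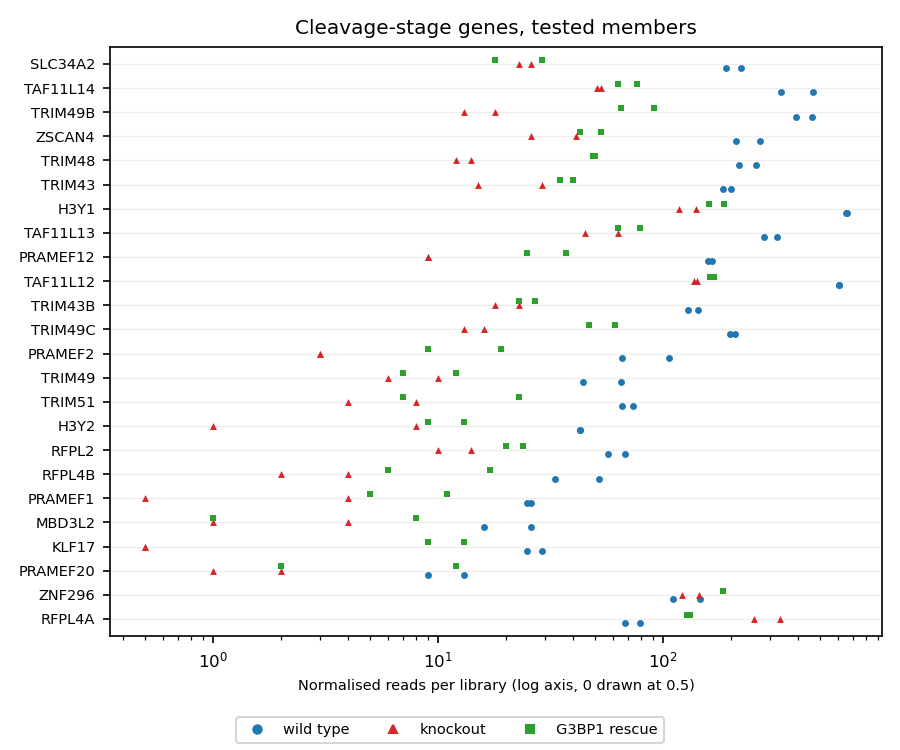
Normalised reads per library on a log axis for the 24 tested members of the cleavage-stage list, which was made after the values were seen; circles are wild type, triangles knockout and squares rescue, and a library with 0 reads is drawn at 0.5. The 2 wild-type libraries lie to the right of the rescue libraries for the 18 members called higher, as with ZSCAN4 at 212 and 270 against 43 and 53.

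Genes far from wild type in knockout and not called between wild type and rescue show the other side of the comparison. KRT34, a hair keratin, had 655 and 644 normalised reads in wild type, 11 and 2 in knockout, and 617 and 627 in rescue. The noncoding RNA MANCR had 282 and 313, then 3 and 7, then 237 and 194. TLL1, a protease that processes procollagen, had 163 and 135 in wild type, 1307 and 1143 in knockout, and 211 and 213 in rescue. GP6 and SYT1 were likewise high in knockout alone, at 1474 and 1383 for GP6 and 511 and 579 for SYT1. In these genes the rescue libraries lay nearer to wild type than to knockout, which the rule that chose them largely fixes. An adjusted p over 0.05 does not show that the levels were equal: the authors' deposited table put TLL1 at -0.46 on the log2 scale, with a standard error of 0.20 and an adjusted p of 0.0656. KRT81 and PAGE2, also near silent in knockout, were called slightly higher in wild type. KRT81 had 13486 and 12125 in wild type, 18 and 20 in knockout, and 8255 and 9532 in rescue, and its limma call was lost without wild-type library a (adjusted p 0.0649). PAGE2 had 1334 and 1335, then 3 and 3, then 852 and 883.

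Called genes also lay next to each other. With 18526 tested genes put in the order of RefSeq genes (GRCh38.p14), the longest run called in 1 direction held 11 genes, from TAFA4 to EIF4E3, all lower in wild type, with a median log2 fold change of -0.56. It includes the transcription factors MITF and FOXP1. The next held 10 genes each, from TSR3 to JPT2 with a median of -1.08 and from TUBB6 to CEP192 with a median of -0.60, all lower in wild type. JPT2 had 5272 and 5425 normalised reads in wild type, 14579 and 14232 in knockout, and 12267 and 11813 in rescue, and EIF4E3, a cap-binding protein, had 489 and 536, then 1255 and 1070, then 931 and 837. In the TSR3 to JPT2 run the median was 1.29 in knockout over wild type and 0.17 in knockout over rescue, so knockout and rescue stood near each other there. The limma call of TAFA4 did not hold with every library left out in turn, in fits that leave 1 library in a group. Whether copy number differs between the cell populations was not tested.

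The second experiment, in which G3BP1 mRNA stood much further above knockout, shares no library with this one and compared knockout cells with and without wild-type G3BP1, 2 libraries each, without wild-type cells. Of the 4652 genes lower in wild type than in rescue here that were tested there, 2603 (56%) were called higher in rescue than in knockout and 573 (12.3%) lower. Of the 3300 genes higher in wild type here, 460 (13.9%) were called higher there and 1569 (47.5%) lower. Over all 20132 genes tested in both tables the shares were 23.6% and 19.4%. Counting only the sign, 74.6% of 7952 called genes moved from knockout in the direction in which rescue stands from wild type here (95% Wilson interval 73.6 to 75.6, counting error over genes only). Higher in the second rescue than in knockout were 75.8% of the genes lower in wild type here and 27.1% of those higher. Over all 20132 genes it was 48.7%. Among genes with a log2 fold change of at least 1 in size here, it was 62.9% of 805. Over genes whose base mean in the second table reached 100, the median was 0.18, and taking that shift out gave 72.4%. Among the genes with the lowest values here, the authors' deposited table of the second experiment put ICAM1 at 0.67, MXRA8 at -0.92 and TRIML2 at 3.16, rescue over knockout.

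In a separate experiment the authors pulled down FLAG-tagged G3BP1 from FlpIn 293 Trex, an embryonic kidney line that expresses it stably under tetracycline, and compared the bound RNA with input, 3 libraries each. Of 4238 genes lower in wild type than in rescue that were tested there, 53% were called higher in the pull-down and 24.8% higher in input. Of 3171 genes higher in wild type, 20.1% and 52.1% were. Over all 19600 genes tested in both, the shares were 27.6% and 34.6%. The cells differ and both tables can depend on expression level and transcript length, whose part was not tested.

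The labelled cell type was checked by markers. Of 10 markers of osteosarcoma cells, 8 were tested. VIM, SPARC, CDH2 and CD44 were abundant in all groups, while TWIST1 had no read in any library. The summed level was 212780 and 205550 normalised reads in wild type, 153837 and 144405 in knockout, and 166148 and 167670 in rescue, and 5 members were called higher in wild type and 1 lower. Of 10 blood cell markers 4 were tested, with sums of 344 and 330 in wild type and 356 and 285 in rescue and no read of CD3E. Of these 4, 1 was called lower in wild type and 0 higher. Of 10 epithelial markers 7 were tested, with sums of 861 and 761 in wild type and 1996 and 1848 in rescue. CLDN4, a tight junction protein, was the member called lower in wild type, at 236 and 210 against 1527 and 1413, a larger difference than that of the sums. EPCAM, the defining surface marker, was called higher in wild type. The limma call of EPCAM did not hold with every library left out in turn, in fits that leave 1 library in a group. Of 10 markers of embryonic kidney 293 cells 8 were tested, with sums of 7646 and 7457 in wild type and 7643 and 7800 in rescue. These sums overlap, but single members differed: 4 were called higher in wild type and 2 lower. PAX2 stood 2.17 times higher in wild type than in rescue, and LIN28B 2.1 times higher in rescue. The part of these markers in the results was not tested.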

How the data were processed

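Whole-transcriptome libraries of poly-A RNA were made by the submitters with a strand-preserving kit, per the labels' protocols. Reads were processed with STAR 2.7.0f and DESeq2 2.11.40.6, per the submitters' processing notes; genome build, annotation and strand setting are not given in the sources used here. Per table, the authors deposited a base mean (a signal in normalised reads over the libraries of both groups), a shrunken log2 fold change, first group over second, its standard error, also on the log2 scale, a Wald score, and a p-value and adjusted p-value. The deposited tables give no values of single libraries.

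The authors' Wald test (adjusted p under 0.05) is the main test. From the deposited base means of 3 tables, the reads of 6 libraries were worked out here as the only whole numbers that fit to the digits given (tested on simulated data, where 299 of 300 were recovered and 0 wrongly). They were normalised by median of ratios and refitted with limma 3.58.1 (voom) in R 4.3.3, an alternative that called 86.5% of 200 genes changed 2-fold in simulated data of 22847 genes, with 10 false calls. Python 3.11.15, numpy 2.4.6 and pandas 2.3.3 were used.

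Genes were named by rule: G3BP1 and G3BP2; the 10 highest and 10 lowest called fold changes at a base mean of at least 100, and the 5 of each at 1000; the 2 extremes each way of every list; the 3 extremes of knockout each way that were not called; and the ends of the 3 longest neighbour runs. Of 61541 IDs, 61369 had a symbol. The members and lists were chosen with earlier results of these data known, and other genes were named after their values were seen. Some genes are not reported here.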

Additional observations from a re-analysis of the deposited data

How the results depend on the processing

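No paired analysis was possible because the deposited tables hold no columns of single libraries, so the reads worked out from them cannot be given a replicate number. The 8139 calls became 6574 at an adjusted p of 0.01, 9171 at 0.1, 7696 where the base mean reached 100, 7600 adjusted over all genes with a p-value, 8127 with fold changes centred on -0.04, their median where the base mean reached 100 (4021 higher and 4106 lower) and 10673 with limma on the recovered reads, which called all 8131 of the calls it could test with the same sign. A log2 fold change of at least 1 left 867 (293 higher, 574 lower). With 1 library left out, a lone library being assumed to vary like the other group, limma called 5275 to 9247 genes, 2363 to 4016 higher and 2912 to 5243 lower. The lowest counts came without wild-type library b (5275) and without wild-type library a (5759), and 63.9% and 69.1% of the authors' calls were still called then, all with the same sign. Of 154 called genes named by rule, 26 lost their limma call in at least 1 such fit. The medians of 23 of 34 lists lay below 0, and 22 to 24 did with 1 library left out. The median of the TGF-beta and BMP list ran from -0.01 (without wild-type library a) to 0.16 when 1 library was left out, against 0.05, and that of the osteoblast list from -0.22 to 0.14 (without wild-type library b), against -0.12. No other list median changed sign under the alternatives run. The share of called genes going the same way in the second experiment, 74.6%, was 80.2% for genes called in both tables, 72.4% with the second table centred, 75.7% where the base mean reached 100 in each table and 62.9% at a log2 fold change of at least 1. With 2 libraries a group, small differences in genes of low reads were not detectable.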
